A study of Mus musculus with 12 samples.

Results

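Prostaglandins and leukotrienes are lipid mediators made from arachidonic acid, and 10 genes of their synthesis and of prostaglandin E2 reception were followed across 5 populations of dendritic cells (DCs) and DC progenitors of the mouse. The genes were taken by name: Ptgs1, Ptgs2, Ptges, Ptger2, Ptger3, Ptger4, Alox5, Alox5ap, Ltc4s and Lta4h. Of these 10 genes, 9 were measured among 22180 in all, and Ptgs1 was not analysed here because the probe annotation used here does not list it. Alox5 and Alox5ap have 2 probe sets each, of which 1 was chosen by its higher mean over the 12 arrays. Those means were 6.70 for Alox5 and 10.65 for Alox5ap (log2), and they enter no test.

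Cyclooxygenases, encoded by Ptgs1 and Ptgs2, turn arachidonic acid into prostaglandin H2, from which the synthase encoded by Ptges makes prostaglandin E2. Receptors for prostaglandin E2 include those encoded by Ptger2 and Ptger4, which raise cyclic AMP, and by Ptger3, which lowers it. In the other branch, 5-lipoxygenase (Alox5), helped by the membrane protein FLAP (Alox5ap), makes leukotriene A4, which Lta4h hydrolyses to leukotriene B4 and Ltc4s joins to glutathione to give leukotriene C4. In DCs these mediators are known to act on migration and on cytokine production.

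All mice were C57Bl/6 and carried GFP at 1 allele of Zbtb46, which encodes a transcription factor of classical DCs, so all 5 groups carry the reporter (the labels' genotype is N8 Zbtb46GFP/+). They were analysed at steady state, and the labels used here give no age. Per the labels, cells of 8 to 10 littermates were sorted, and sorted cells were over 95% pure. The common DC progenitor (CDP, n = 3 arrays; CD117 intermediate, CD135+, CD115+, CD11c-, MHC II-), the pre-CD4 DC progenitor (n = 2; CD117 low, CD135+, CD115+, CD11c+, MHC II-) and the pre-CD8 DC progenitor (n = 2; CD117 intermediate, CD135+, Siglec H-, CD11c+, MHC II intermediate) were lineage-negative cells of bone marrow. The CD172a DC (n = 2; CD11c+, MHC II+, CD172a+) and the CD24 DC (n = 3; CD11c+, CD24+, CD172a-, and MHC II- in the label) came from spleen digested with collagenase B and DNase, whereas marrow was released with mortar and pestle, so maturation, organ and digestion cannot be told apart. The labels leave unclear if a group's arrays hold RNA of different animals or pools. P-values then reflect only how these arrays varied, which may be technical.

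Each array gave 35145 probe-set values on a log2 scale, from 0.844 to 13.09, with array means of 5.28 to 5.34 and interquartile ranges of 2.10 to 2.86. Pearson's r was 0.925 to 0.987 between arrays within a group, and 0.858 to 0.976 across groups. Of the genes that the sort used, Sirpa, which encodes CD172a, stood at 9.35 in CD172a DC against 5.85 in CD24 DC, and Itgax (CD11c) at 6.07 in CDP and 7.97 to 9.91 elsewhere. Kit (CD117) was lowest in pre-CD4, at 5.95, but stood higher in CD172a DC and CD24 DC (9.70 and 9.71) than in CDP (8.24). The class II gene H2-Ab1 reached 12.19 in CD24 DC although the label gives that sort as MHC II-, and it stood at 9.18 ± 1.44 in pre-CD4, also sorted as MHC II-. Means of marker lists of B cells (4.62 to 5.42 over the arrays), T cells (4.33 to 4.98), NK cells (4.33 to 5.17), erythroid cells (4.77 to 5.59) and megakaryocytes (4.63 to 5.66) lay near the array medians of 4.89 to 5.24. The mean of plasmacytoid DC markers was highest in pre-CD4 (6.85 and 7.08, against 5.62 to 6.51 elsewhere). Of that list, however, Dntt and Cox6a2 were highest in CDP (8.64 and 7.86), and Ccr9 and Pacsin1 in CD24 DC (6.03 and 5.74). Among the B cell markers Ms4a1 did go with the spleen, at 8.10 ± 0.28 in CD24 DC and 6.67 ± 0.50 in CD172a DC. Its group means in marrow were 4.11 to 4.62, while those of Cd79a stood at 4.21 to 4.48 in all 5 groups. Cd79b, the most abundant B cell marker of the list, ran the other way. It was lowest in CD24 DC (5.46 ± 0.29) and highest in CDP (7.57 ± 0.38). CD172a DC, at 6.59 ± 0.15, lay near pre-CD8 (6.66 ± 0.84) and below pre-CD4 (7.02 ± 0.49). No detection calls were used, so low values may be background, and levels are compared within a gene only. In bulk RNA, fewer cells with a transcript and less transcript per cell cannot be told apart, and the number of arrays limits every value.

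**Figure D1:**
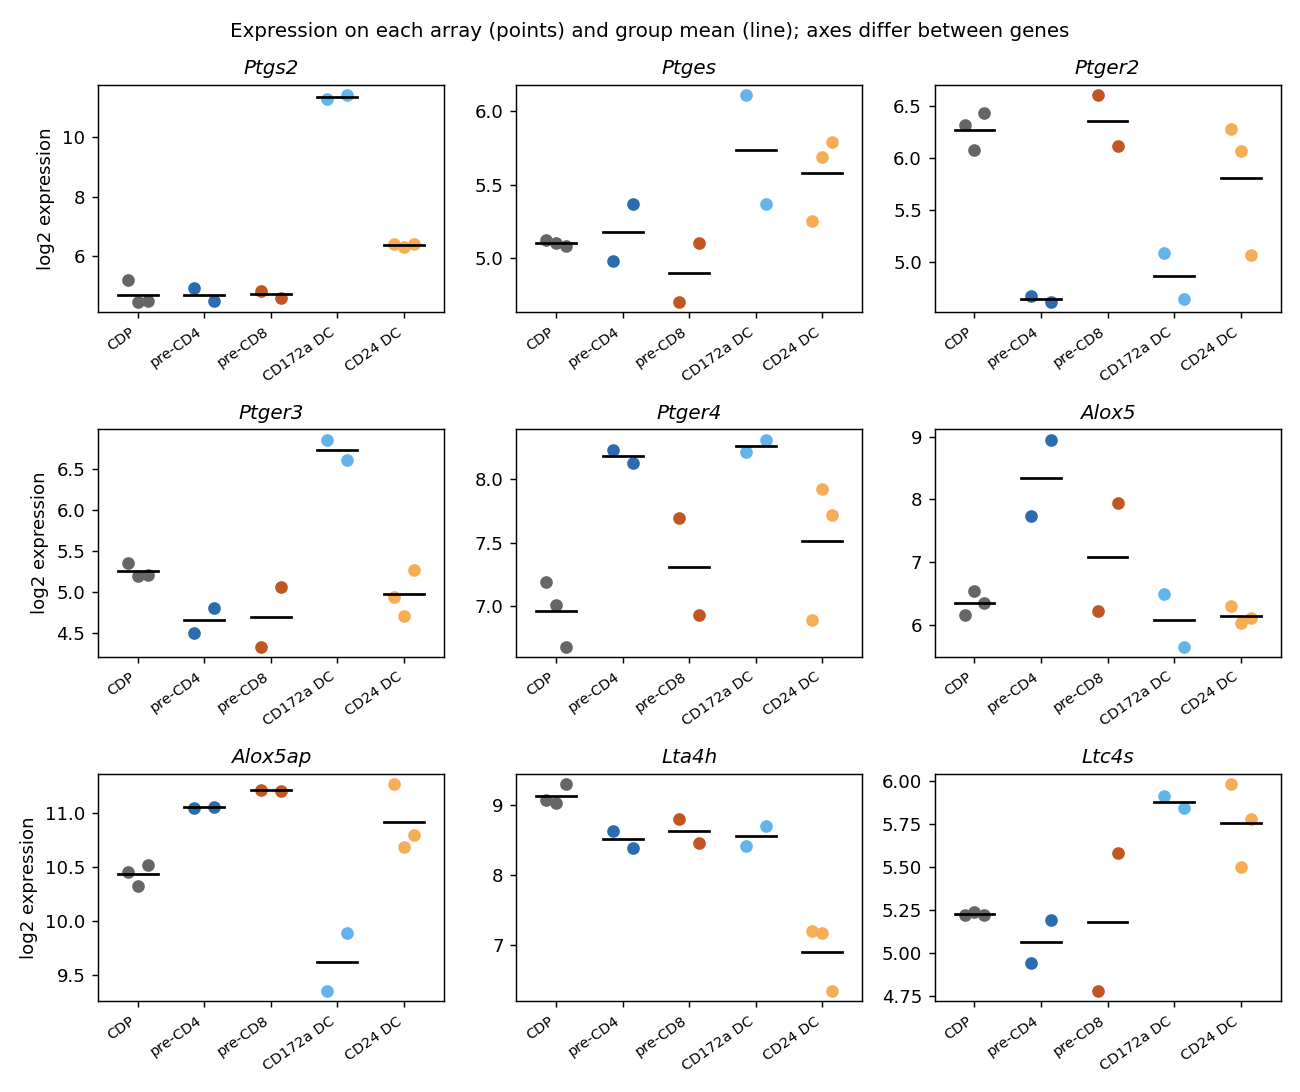
Log2 expression of the 9 measured genes (vertical axes, differing between panels) on each array (points) by population, with group means as lines. Ptgs2 stands at 11.28 and 11.41 in CD172a DC against 6.42 or less elsewhere, Lta4h is lowest in CD24 DC, and Alox5 has its highest mean in pre-CD4.

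The largest difference among the 9 genes was that of Ptgs2, the inducible cyclooxygenase. Its log2 values were 11.28 and 11.41 in CD172a DC. They were 6.42, 6.29 and 6.40 in CD24 DC, 5.18, 4.45 and 4.47 in CDP, 4.91 and 4.49 in pre-CD4, and 4.83 and 4.58 in pre-CD8. Both CD172a arrays lay above all others, the 3 CD24 arrays lay between these and the marrow arrays, and the 3 marrow populations overlapped. Ptgs2 was 4.97 ± 0.24 higher (log2 difference ± standard error, limma; 31.4-fold) in CD172a DC than in CD24 DC, with an adjusted p of 1.47e-07. It rose by 6.64 ± 0.26 from pre-CD4 to CD172a DC (adjusted p = 3.42e-08) and by 1.66 ± 0.24 from pre-CD8 to CD24 DC (3.17-fold, adjusted p = 0.000664). Between the marrow progenitors, pre-CD8 minus pre-CD4 was 0.01 with a 95% confidence interval of -0.56 to 0.58. The difference between the lineages was thus larger in spleen than in marrow, by 4.98 ± 0.36 in favour of CD172a DC (adjusted p = 2.1e-05, limma interaction contrast). Against CDP it was 6.64 ± 0.24 higher in CD172a DC (99.9-fold, adjusted p = 7.42e-09) and 1.67 ± 0.22 higher in CD24 DC (adjusted p = 8.08e-05). The 6 calls of Ptgs2 given here held on leaving out any of the 12 arrays and under each of 8 other settings. In a group of 2, leaving out an array leaves 1, which is then assumed to vary like the other groups; this holds for every such value here.

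Ptgs2 is also known as an early-response gene, and spleen and marrow were released differently. A list of 14 immediate-early and heat-shock genes, chosen after the data were seen, was therefore read on the same arrays. Its mean was 9.69 and 10.23 in CD172a DC, 9.46 to 10.08 in CD24 DC, 7.78 and 8.14 in pre-CD8, 7.55 and 7.96 in pre-CD4, and 6.89 to 7.39 in CDP. The list was thus high in both spleen populations: 11 of 14 genes rose from pre-CD4 to CD172a DC, where 4.7% of all genes did, and 9 of 14 from pre-CD8 to CD24 DC (2.65%). Between CD24 DC and CD172a DC limma called 0 of 14 (1 at an unadjusted p under 0.05), where 5.59% of all genes were called. The most abundant genes of the list, Zfp36 and Hspa1b, stood at 12.30 ± 0.20 and 11.96 ± 0.16 in CD172a DC and at 12.05 ± 0.31 and 11.64 ± 0.40 in CD24 DC. The part of digestion in the rise of Ptgs2 from marrow to spleen was not tested.

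**Figure D2:**
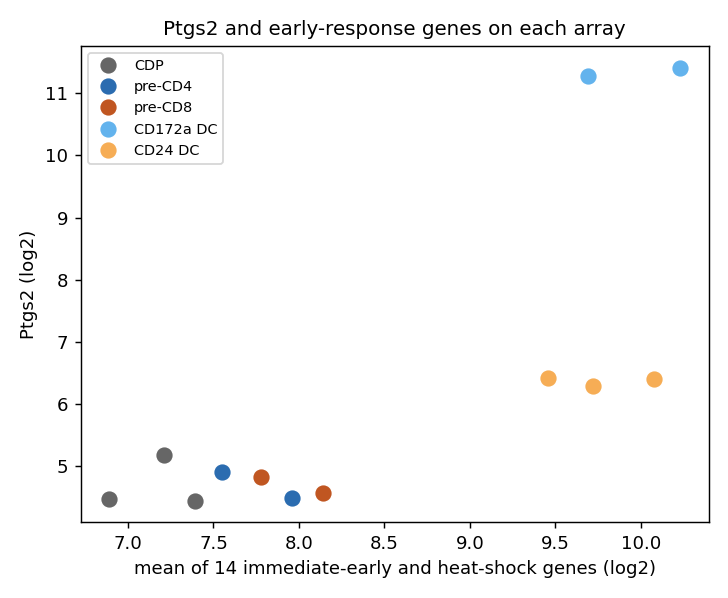
Ptgs2 (log2, vertical axis) against the mean of 14 immediate-early and heat-shock genes (log2, horizontal axis), 1 point per array. The 5 spleen arrays share a range of 9.46 to 10.23 on the horizontal axis, and within it Ptgs2 is at 11.28 and 11.41 in CD172a DC and 6.29 to 6.42 in CD24 DC.

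Macrophage genes were read beside Ptgs2, since macrophages also express it. The mean of 13 measured monocyte and macrophage markers was 6.43 and 6.54 in CD172a DC, 6.06 to 6.29 in CD24 DC and 6.44 to 7.10 in marrow, where Ly6c2, Ccr2 and F13a1 of that list stood at up to 11.57, 10.56 and 10.68 as group means. Of the 13, Adgre1, C1qa, C1qb, C1qc, Mertk and Vcan had their highest group mean in CD172a DC, as Ptgs2 did. Adgre1, a surface receptor gene of macrophages, stood at 9.31 ± 0.15 in CD172a DC and at 5.56 ± 0.06 in CD24 DC (adjusted p = 5.33e-06, limma). The complement genes C1qa, C1qb and C1qc stood at 6.75 ± 0.13, 6.24 ± 0.09 and 5.30 ± 0.24 in CD172a DC and at 6.17 ± 0.18, 5.54 ± 0.33 and 5.06 ± 0.26 in CD24 DC, with adjusted p of 0.242, 0.166 and 0.776 for the difference. The abundant markers Lyz2 and Cd68 were at 9.97 ± 0.39 and 10.01 ± 0.31 in CD172a DC and at 10.01 ± 0.23 and 9.90 ± 0.30 in CD24 DC. Between the spleen populations 2 of 13 were called (5.59% of all genes), 1 higher in CD24 DC (3.21%) and 1 lower (2.37%). From pre-CD4 to CD172a DC 5 were called (12.7%), 2 higher (4.7%) and 3 lower (8.02%). From CDP to CD172a DC 8 were called (22.8%), 5 higher (8.68%) and 3 lower (14.2%). The part of other cells in the Ptgs2 level was not tested.

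Ptges, the inducible prostaglandin E synthase that acts after cyclooxygenase, was called in none of the 9 comparisons by limma (2 at an unadjusted p under 0.05: CD24 DC against pre-CD8 and CD172a DC against CDP). Its values were 6.11 and 5.37 in CD172a DC. They were 5.25, 5.69 and 5.79 in CD24 DC, 5.12, 5.10 and 5.08 in CDP, 4.98 and 5.37 in pre-CD4, and 4.70 and 5.10 in pre-CD8. Its arrays overlapped between neighbours in the order of means throughout. Between groups farther apart in that order, both spleen populations lay above CDP and above pre-CD8 without overlap. CD24 DC minus CD172a DC was -0.16 (95% confidence interval -0.72 to 0.39). CD172a DC minus CDP was 0.64 ± 0.26 (adjusted p = 0.0898), and it passed the threshold without CD172a DC array 2 (1.01, adjusted p = 0.0318).

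Ptger3, the receptor that lowers cyclic AMP, had the profile nearest to that of Ptgs2 among the measured genes of the 10 (r = 0.87 over the 12 arrays, which share 5 groups). Its values were 6.86 and 6.61 in CD172a DC, 5.36, 5.20 and 5.21 in CDP, 4.95, 4.71 and 5.27 in CD24 DC, 4.34 and 5.07 in pre-CD8, and 4.51 and 4.81 in pre-CD4. Only the CD172a arrays stood apart from all others, and the other 4 populations overlapped from one to the next in the order of means. Every CDP array still lay above those of pre-CD4 and pre-CD8. The differences from CDP, -0.59 ± 0.25 and -0.55 ± 0.25, were not called (adjusted p = 0.254 and 0.293, limma). Ptger3 was 1.76 ± 0.25 higher in CD172a DC than in CD24 DC (adjusted p = 0.000695) and rose by 2.07 ± 0.27 from pre-CD4 to CD172a DC (4.2-fold, adjusted p = 0.000214), and against CDP it was 1.48 ± 0.25 higher there (adjusted p = 0.000705). From pre-CD8 to CD24 DC it differed by 0.27 (95% confidence interval -0.25 to 0.80).

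The promoters of Ptgs2 and Ptger3, whose levels were both highest in CD172a DC, are shown from the RefSeq tables of build GRCm38.p6 (promoters of 9 of the 10 genes matched). Stretches before the gene's start were obtained and searched only for Ptgs2, Ptger2, Ptger3, Ptger4, Alox5, Ltc4s and Lta4h. The stretch of Ptgs2 is chr1:150099781-150100030 on the plus strand, the 250 bases before the gene's start. That of Ptger3 is chr3:157566626-157566820 on the plus strand, 195 bases that end where the annotated gene begins. Capitals mark matches, on either strand, to 9 motifs that were searched: the TATA box TATAAA, the GC box GGGCGG, the E-box CACGTG, the cAMP response core TGACGT, the C/EBP motif TTGCNNAA, the AP-1 motif TGANTCA, the PU.1 and ETS core GAGGAA, and the NF-kB and interferon regulatory factor motifs. No matches overlapped.
Ptgs2: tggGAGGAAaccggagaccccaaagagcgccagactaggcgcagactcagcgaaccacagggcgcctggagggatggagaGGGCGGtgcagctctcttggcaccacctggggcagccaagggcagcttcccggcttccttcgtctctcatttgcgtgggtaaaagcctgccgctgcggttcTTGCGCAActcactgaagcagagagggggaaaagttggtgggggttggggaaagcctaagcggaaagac
Ptger3: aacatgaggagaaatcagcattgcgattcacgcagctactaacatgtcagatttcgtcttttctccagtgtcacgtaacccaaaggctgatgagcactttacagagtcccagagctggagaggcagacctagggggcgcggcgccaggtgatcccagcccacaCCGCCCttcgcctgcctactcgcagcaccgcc
The Ptgs2 stretch held GAGGAA, then the GC box GGGCGG, and TTGCGCAA, a match to the C/EBP motif. Over all 32851 promoters of the table, 23.3%, 32.7% and 9.56% of stretches of 250 bases held these motifs. The Ptger3 stretch held GGGCGG on the opposite strand, so GGGCGG is the motif that both share. Of all promoters, 23.8% held it in the first 195 of the 250 bases, the part farther from the start. GGGCGG was also in the searched stretches of Ptger4 (4 matches) and Alox5, and not in those of Ptger2, Ltc4s and Lta4h.

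The receptors that raise cyclic AMP went opposite ways in pre-CD4 cells. Ptger2 stood at 4.67 and 4.61 in pre-CD4 and at 5.08 and 4.64 in CD172a DC, below its 6.31, 6.07 and 6.43 in CDP and its 6.60 and 6.11 in pre-CD8. CD24 DC arrays, at 6.28, 6.06 and 5.06, overlapped both ranges. CD24 DC minus CD172a DC was 0.94 ± 0.31 (adjusted p = 0.118), and it passed the threshold without CD24 DC array 3 (1.31, adjusted p = 0.00637). Ptger2 fell by 1.63 (standard error 0.31, 3.09-fold) from CDP to pre-CD4 with an adjusted p of 0.00855, and was 1.71 ± 0.35 higher in pre-CD8 than in pre-CD4 (adjusted p = 0.0385). Ptger4 stood at 8.23 and 8.13 in pre-CD4 and at 8.21 and 8.31 in CD172a DC, above the 7.19, 7.01 and 6.68 of CDP. In the other lineage it was at 7.69 and 6.93 in pre-CD8 and at 6.89, 7.92 and 7.72 in CD24 DC, where the arrays of the groups overlapped. Its difference between CD24 DC and CDP was 0.55 ± 0.27 (adjusted p = 0.176), and 0.86 (adjusted p = 0.019) without CD24 DC array 1. Ptger4 rose by 1.22 ± 0.31 from CDP to pre-CD4 (2.33-fold, adjusted p = 0.0377). From pre-CD4 to CD172a DC, Ptger2 and Ptger4 differed by 0.22 (95% confidence interval -0.53 to 0.96) and 0.08 (-0.64 to 0.80). Against CDP, CD172a DC was 1.41 ± 0.31 lower in Ptger2 (adjusted p = 0.00535) and 1.30 ± 0.31 higher in Ptger4 (adjusted p = 0.00731).

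These receptor calls rest on few arrays. The fall of Ptger2 from CDP had an adjusted p of 0.0672 without pre-CD4 array 1 and of 0.0929 without array 2. The rise of Ptger4 in pre-CD4 lost its call without either CD172a DC array (0.0573), without CDP 1, 2 or 3 (0.0598, 0.0899 and 0.147) and on dropping pre-CD4 1 or 2 (0.229 and 0.19). The Ptger2 difference between the progenitors kept its call only without CD24 DC 1 or 3 (adjusted p up to 0.284 without any other array). Without CD172a DC array 2 the CD172a calls against CDP ended too, at 0.068 for Ptger2 and 0.056 for Ptger4.

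In the leukotriene branch, Alox5 was highest in pre-CD4. Its values were 7.74 and 8.95 there, 6.22 and 7.94 in pre-CD8, 6.15, 6.54 and 6.34 in CDP, 6.49 and 5.65 in CD172a DC, and 6.29, 6.02 and 6.10 in CD24 DC. The pre-CD4 arrays lay above those of CDP and of both spleen populations but not above pre-CD8 array 2. Alox5 rose by 2.00 ± 0.44 from CDP to pre-CD4 (adjusted p = 0.0202) and fell by 2.28 (standard error 0.49, 4.84-fold) from pre-CD4 to CD172a DC (adjusted p = 0.00719). The second Alox5 probe set gave 1.65 and -1.57 for these steps (adjusted p = 0.0178 and 0.0148 over all probe sets, limma). Pre-CD8 minus pre-CD4 was -1.26 (95% confidence interval -2.31 to -0.21, adjusted p = 0.642), so a difference between the progenitors was not called. CD24 DC minus pre-CD8 was -0.94 ± 0.44 (adjusted p = 0.3), and -1.80 (adjusted p = 0.0413) without pre-CD8 array 1. The rise lost its call without CDP 1 (adjusted p = 0.0706), CDP 3 (0.0628) or pre-CD4 2 (difference 1.40, adjusted p = 0.276), and the fall without CD172a DC 2 (0.075) or pre-CD4 2 (0.0782).

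Alox5 is also a gene of neutrophils, and array 2 was the higher one in both progenitors. The mean of 14 neutrophil markers was 6.33 on pre-CD8 array 1 and 8.37 on pre-CD8 array 2, the array with the higher Alox5. It was 6.03 and 6.30 in pre-CD4 and 7.13 to 8.17 in CDP, where Alox5 was lower than in pre-CD4. Among these markers S100a8 was at 8.28 and 11.95 in pre-CD8, and also at 10.24 and 4.83 in CD172a DC and at 9.52 on CD24 DC array 2. Camp was at 5.99 and 10.81 in pre-CD8 and at 4.71 and 6.50 in pre-CD4. Ngp was at 5.12 and 10.87 in pre-CD8 and at 5.36 and 7.39 in pre-CD4. In CDP these had means of 7.28 ± 1.65 and 7.32 ± 1.96. Mpo, Elane, Prtn3 and Ctsg had CDP means of 12.33, 9.82, 9.69 and 11.47, and each was lower on pre-CD4 array 2 than on array 1. The part of neutrophil RNA in the Alox5 level of pre-CD8 was not tested.

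Alox5ap, the partner of 5-lipoxygenase, stood at 11.05 and 11.06 in pre-CD4, 11.22 and 11.21 in pre-CD8, 11.27, 10.69 and 10.80 in CD24 DC, 10.46, 10.33 and 10.52 in CDP, and 9.35 and 9.89 in CD172a DC. On this probe set only CD172a DC lay below CDP, without overlap. The second probe set stood at 9.25 ± 0.30 in CD172a DC and 9.33 ± 0.16 in CDP. The difference there was -0.08 (adjusted p = 0.829 over all probe sets, limma). Alox5ap fell by 1.44 (standard error 0.24) from pre-CD4 to CD172a DC (2.71-fold, adjusted p = 0.00159) and was 1.30 ± 0.22 higher in CD24 DC than in CD172a DC (adjusted p = 0.00315). It lay opposite to Ptger3 over the 12 arrays (r = -0.90). The contrast of CD24 DC with CD172a DC lost its call without CD172a DC 1 (difference 1.03, adjusted p = 0.0713). On the second probe set it was 0.57 (adjusted p = 0.241) and the fall from pre-CD4 0.81 in size (adjusted p = 0.0667), so neither was called there. The difference of CD172a DC from CDP, -0.82 ± 0.22 (adjusted p = 0.017), was not called without CD172a DC 1 (-0.55, adjusted p = 0.229) or CDP 3 (0.0576), nor with the mean of both probe sets (-0.45, adjusted p = 0.155) or quantile normalization (-0.57, adjusted p = 0.0532).

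Lta4h, the hydrolase that makes leukotriene B4, set CD24 DC apart. Its values were 7.20, 7.17 and 6.35 there, 8.41 and 8.69 in CD172a DC, 8.80 and 8.46 in pre-CD8, 8.63 and 8.39 in pre-CD4, and 9.07, 9.03 and 9.29 in CDP. Every CD24 array lay below every other array, and every CDP array above. Lta4h fell by 1.72 (standard error 0.26, 3.3-fold) from pre-CD8 to CD24 DC (adjusted p = 0.000953) and was 1.64 ± 0.26 lower in CD24 DC than in CD172a DC (adjusted p = 0.00183). Both calls held on leaving out any of the 12 arrays, with adjusted p up to 0.0261 and 0.0296. Against CDP it was 2.22 ± 0.23 lower in CD24 DC (4.67-fold, adjusted p = 1.49e-05), and CD172a DC minus CDP was -0.58 ± 0.26 (adjusted p = 0.129, and 0.04 without CD24 DC array 3). From pre-CD4 to CD172a DC it differed by 0.04 (95% confidence interval -0.57 to 0.66).

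Ltc4s, which makes leukotriene C4, was called in no comparison by limma (4 at an unadjusted p under 0.05, all of spleen against marrow populations). It stood at 5.91 and 5.84 in CD172a DC. Its values were 5.98, 5.50 and 5.78 in CD24 DC, 5.22, 5.24 and 5.22 in CDP, 4.94 and 5.19 in pre-CD4, and 4.78 and 5.58 in pre-CD8. Both spleen populations lay above CDP without overlap. CD172a DC minus pre-CD4 was 0.81 ± 0.26 (adjusted p = 0.0606), which passed the threshold in the fit of only those groups (adjusted p = 0.0447) and with dim genes left out (0.0371), and without CD24 DC 1 (0.0471) or pre-CD8 1 or 2 (0.0309 each). CD172a DC minus CDP, 0.65 ± 0.24 (adjusted p = 0.0669), passed it in the fit of only those groups (0.0199), with dim genes left out (0.0427) and without either pre-CD8 array (0.0348 each), and CD24 DC minus pre-CD8 did without pre-CD8 2 (0.97, adjusted p = 0.0474). Ltc4s is abundant in mast cells, eosinophils and basophils, and the mean of 14 markers of these was 4.26 and 4.42 in CD172a DC, 4.03 to 4.40 in CD24 DC and 4.91 and 5.35 in pre-CD8. It was 4.47 to 4.51 in CDP and 4.13 and 4.46 in pre-CD4. Within that list Hdc, histidine decarboxylase, moved with Ltc4s, at 5.74 ± 0.27 in CD172a DC, 5.37 ± 0.15 in CD24 DC, 5.28 ± 0.54 in pre-CD8, 4.82 ± 0.06 in CDP and 4.16 ± 0.39 in pre-CD4. Prss34, Mcpt8 and Prg2, the most abundant of the list, did not, and were highest in pre-CD8 (7.39 ± 0.77, 8.27 ± 0.78 and 7.63 ± 1.81). They stood at 6.29 ± 0.02, 4.34 ± 0.03 and 4.92 ± 0.03 in CD172a DC, and at 5.76 ± 0.20, 4.36 ± 0.70 and 4.69 ± 0.15 in CD24 DC. The part of such cells in the Ltc4s level was not tested.

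The promoters of Alox5 and Lta4h, enzymes of which the first was highest in pre-CD4 and the second lowest in CD24 DC, are shown in the same way. Alox5 is at chr6:116461179-116461428 on the minus strand and Lta4h at chr10:93453146-93453395 on the plus strand, each the 250 bases before the start, with capitals as above.
Alox5: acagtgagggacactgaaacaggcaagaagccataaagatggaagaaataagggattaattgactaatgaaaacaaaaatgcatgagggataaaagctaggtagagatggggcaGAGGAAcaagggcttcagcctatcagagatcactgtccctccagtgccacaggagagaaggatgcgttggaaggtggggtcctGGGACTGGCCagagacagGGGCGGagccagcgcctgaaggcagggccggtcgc
Lta4h: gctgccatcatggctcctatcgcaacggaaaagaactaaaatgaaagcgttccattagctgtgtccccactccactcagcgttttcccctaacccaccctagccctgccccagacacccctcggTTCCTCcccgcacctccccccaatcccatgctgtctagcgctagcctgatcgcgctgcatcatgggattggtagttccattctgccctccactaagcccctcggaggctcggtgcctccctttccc
The Alox5 stretch held GAGGAA, the GC box GGGCGG and, as do 15.9% of promoters, a match to the NF-kB motif. The Lta4h stretch held GAGGAA on the opposite strand and none of the other 8 motifs.

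**Figure D3:**
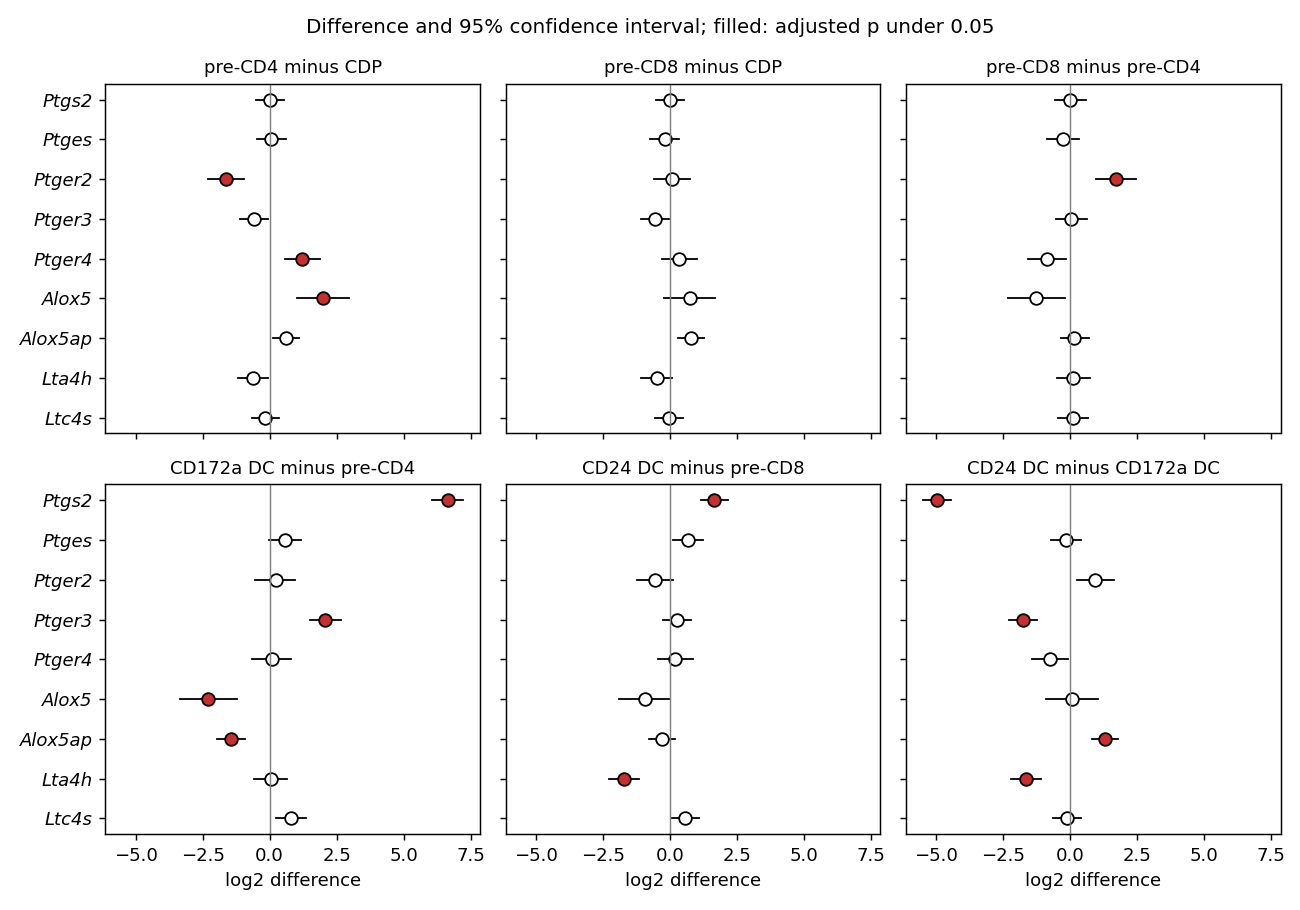
Log2 differences of the 9 genes in 6 comparisons (points) with 95% confidence intervals from limma (lines). Filled points have an adjusted p under 0.05: Ptgs2 differs by 6.64 from pre-CD4 to CD172a DC and by -4.97 in CD24 DC against CD172a DC, and no gene is filled in pre-CD8 minus CDP.

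Counted over comparisons, limma called 4 of 9 genes between CD24 DC and CD172a DC, where 5.59% of all genes were called. Of these, 1 was higher in CD24 DC (3.21% of all genes) and 3 were lower (2.37%). From pre-CD4 to CD172a DC 4 of 9 were called (12.7% of all genes), 2 higher (4.7%) and 2 lower (8.02%), and from pre-CD8 to CD24 DC 2 of 9 (6.31%), 1 higher (2.65%) and 1 lower (3.66%). In pre-CD4 against CDP the count was 3 of 9 (4.54%), 2 higher (2.32%) and 1 lower (2.23%). In pre-CD8 against pre-CD4 it was 1 of 9 (0.703%), higher in pre-CD8 (0.383% of all genes, and 0.32% lower). In pre-CD8 against CDP limma called 0 of 9 (2 at an unadjusted p under 0.05), where 4.77% of all genes were called, 2.29% higher and 2.47% lower. Alox5ap was the nearest at 0.78 ± 0.22 (adjusted p = 0.0691). It was called in 5 of the other 8 settings, as with quantile normalization (0.86, adjusted p = 0.0213), and without CD24 DC 1 (0.0334). Its second probe set gave 0.97 for pre-CD8 minus CDP (adjusted p = 0.0431 over all probe sets, limma). Against CDP, 5 of 9 were called in CD172a DC (22.8% of all genes), 3 higher (8.68%) and 2 lower (14.2%). In CD24 DC 2 of 9 were called against CDP, 1 higher (8.32% of all genes) and 1 lower (12.9%), a share near the background of 21.2%. The interaction of lineage and stage was called for 3 of 9 (1.03% of all genes), all 3 negative (0.532%, with 0.5% positive). Comparisons that share a group, such as the 4 with CDP, are not separate evidence. Median differences of the 9 genes lay between -0.23 and 0.64, against -0.01 to 0.13 for all genes.

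Other genes of the pathway were read from a list of 62, of which 57 were measured and 23 were called in at least 1 comparison. Hpgds, the prostaglandin D synthase of blood cells, was also highest in CD172a DC, with means of 6.99 ± 0.21 in CD172a DC, 5.99 ± 0.12 in CD24 DC, 4.72 ± 0.03 in pre-CD8, 4.48 ± 0.09 in pre-CD4 and 4.29 ± 0.14 in CDP. It rose by 2.51 ± 0.20 from pre-CD4 to CD172a DC (adjusted p = 5.06e-06) and by 1.28 ± 0.19 from pre-CD8 to CD24 DC (adjusted p = 0.000742), both kept on leaving out any array. Tbxas1, thromboxane synthase, marked the other lineage at both stages, 1.80 ± 0.22 higher in pre-CD8 than in pre-CD4 (adjusted p = 0.00144) and 1.20 ± 0.20 higher in CD24 DC than in CD172a DC (adjusted p = 0.003), again with any array left out. Ptgis, prostacyclin synthase, rose by 1.11 ± 0.24 from pre-CD8 to CD24 DC (adjusted p = 0.013, limma). That call was lost in the fit of only those groups (0.0773), and the difference was 0.99 without pre-CD8 array 1. Gpr31b rose more over this step, by 1.65 ± 0.22 (adjusted p = 0.000357), a call kept in each of 8 other settings. It was 0.90 ± 0.22 higher in CD24 DC than in CD172a DC (adjusted p = 0.0292). With quantile normalization that was not called (0.0601), nor in the fit of only those groups (0.164).

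Genes that inactivate prostaglandins were read next. Hpgd, which oxidises prostaglandin E2, rose by 1.95 ± 0.27 from CDP to pre-CD4 and by 1.93 ± 0.27 to pre-CD8 (adjusted p = 0.000969 and 0.000726), from 5.01 ± 0.21 in CDP. Ptgr1, the reductase of the next step, which also oxidises leukotriene B4, was highest in pre-CD4 at 7.75 ± 0.19 and fell by 2.88 (standard error 0.24) to CD172a DC (adjusted p = 6.4e-06). Its lineage difference differed between stages (interaction 1.95 ± 0.33, adjusted p = 0.0112). It was 1.61 ± 0.24 lower in pre-CD8 than in pre-CD4 (adjusted p = 0.00566), while CD24 DC and CD172a DC stood at 5.20 ± 0.04 and 4.87 ± 0.46. The interaction was not called without pre-CD4 array 1 (0.0732) or CD172a DC array 1 (0.0545), nor the progenitor difference without pre-CD4 array 1 (0.0899) or pre-CD8 array 2 (0.0619).

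Cysltr1, a receptor of leukotriene C4 and its products, was high in both progenitors. It rose by 2.85 ± 0.44 from CDP to pre-CD8 and by 1.82 ± 0.44 to pre-CD4 (adjusted p = 0.00173 and 0.0328), then fell by 1.68 (standard error 0.44) to CD24 DC and by 2.10 (standard error 0.49) to CD172a DC (adjusted p = 0.0389 and 0.0115). The rise to pre-CD8 kept its call with any array left out, whereas the rise to pre-CD4 lost it without pre-CD4 2 (0.371) or any CDP array (0.117, 0.0705 and 0.07), the fall to CD172a DC without CD172a DC 2 (0.118) or pre-CD4 2 (0.111), and the fall to CD24 DC without CD24 DC 3 (0.145), CDP 2 or 3 (0.0549 and 0.0555) or pre-CD8 1 or 2 (0.0869 and 0.227). Pla2g4a, the cytosolic phospholipase that releases arachidonic acid, fell by 1.09 (standard error 0.21) from CDP to pre-CD8 (adjusted p = 0.00874, and 0.114 without pre-CD8 1). The lysosomal phospholipase gene Pla2g15 was highest in CDP, at 9.04 ± 0.41, against 7.88 ± 0.68 in CD172a DC and 6.29 ± 0.29 in CD24 DC. From CDP to CD24 DC it fell by 2.75 (standard error 0.35, adjusted p = 8.05e-05, limma). Higher in CD172a DC than in CD24 DC were Fpr2, a formyl peptide receptor, by 2.28 ± 0.49 (adjusted p = 0.0144), Pla2g15 by 1.58 ± 0.40 (adjusted p = 0.0317) and Ggt5, which trims leukotriene C4, by 1.06 ± 0.25 (adjusted p = 0.0209). Without CD172a DC array 1 those of Fpr2 (0.251) and Pla2g15 (0.41) were not called, that of Pla2g15 also not without CD24 DC 1 or 3 (0.0732 and 0.0801), and that of Ggt5 not without CD172a DC 2 (0.234) or CD24 DC 2 (0.0583). Mgst2, a glutathione transferase related to Ltc4s, fell by 1.36 (standard error 0.25) from CDP to pre-CD4 and by 1.34 (standard error 0.25) from pre-CD8 to CD24 DC (adjusted p = 0.00601 and 0.00437), the former not called without pre-CD4 2 (0.103).

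Of the 57 genes, 9 were called between CD24 DC and CD172a DC (3 higher, 6 lower in CD24 DC), which is 15.8% against 5.59% of all genes. From pre-CD4 to CD172a DC 10 were called (4 higher, 6 lower; 17.5% against 12.7%) and from pre-CD8 to CD24 DC 6 (3 higher, 3 lower; 10.5% against 6.31%). Both progenitors had 6 called against CDP (10.5%, against 4.54% of all genes in pre-CD4 and 4.77% in pre-CD8), with 4 higher and 2 lower in pre-CD4 and 3 each way in pre-CD8. Between the progenitors 2 were called (3.51% against 0.703%), and in the interaction 1 (1.75% against 1.03%). Against CDP, 16 were called in CD172a DC (28.1% against 22.8%) and 11 in CD24 DC (19.3% against 21.2%), both near the background. These counts depended on single arrays: without CD172a DC array 1 the count between the spleen populations was 3, without CD172a DC 1 or either pre-CD4 array that from pre-CD4 to CD172a DC was 5, without pre-CD8 1 that from pre-CD8 to CD24 DC was 3, and without pre-CD4 2 that of pre-CD4 against CDP was 1. Medians of the 57 lay between -0.13 and 0.18 in the 9 comparisons, against -0.01 to 0.13 for all genes.

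**Figure D4:**
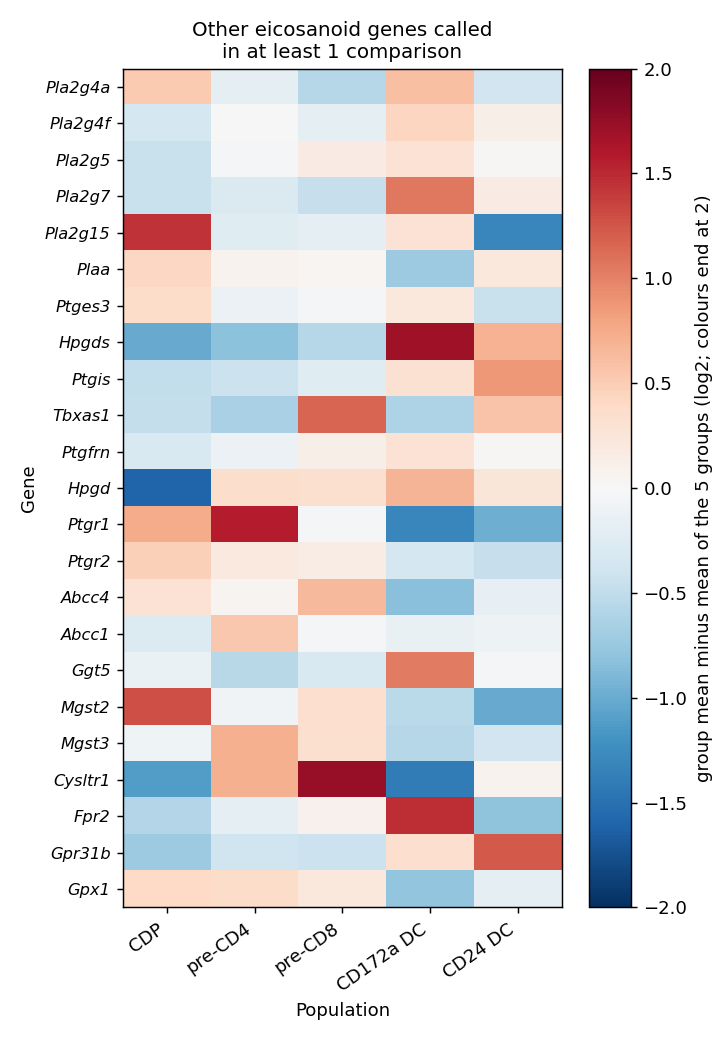
Group means of the 23 other eicosanoid genes called in at least 1 comparison, as log2 difference from the mean of the 5 populations (red higher, blue lower). Hpgds is highest in CD172a DC, Ptgr1 in pre-CD4, Cysltr1 and Tbxas1 in pre-CD8, and Hpgd is lowest in CDP.

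For each measured gene whose group means spanned at least 1, the genes with the most similar values were sought among 5164 others with such a span, by Pearson's r over the 12 arrays, which share group and organ. For Ptgs2 they were Sash1 (r = 0.983, Spearman's rho = 0.797), Mmp12, a macrophage elastase (0.980, 0.664), and Ptpn3 (0.979, 0.734). Mmp12 had means of 7.53 in CD172a DC and 4.39 or less elsewhere. For Ptger3 they were Plaur, the urokinase receptor (0.957, 0.902), Ddx60 (0.949, 0.783) and Adgre1 (0.947, 0.713). Lta4h was followed by Emb (0.975, 0.811), Zbtb18 (0.969, 0.937) and Gm10336 (0.966, 0.846), and Emb had means of 9.48 in pre-CD8 and 5.89 in CD24 DC. Alox5ap was followed by Crip1 (0.958, 0.888), Septin6 (0.952, 0.951) and Sft2d1 (0.946, 0.846). For Alox5 the nearest was Fn1, fibronectin (0.877, 0.811), with a mean of 9.81 in pre-CD4 and 4.78 in CD172a DC, then Rnf141 (0.875, 0.804) and 1700066M21Rik (0.855, 0.804). Ptger2 was nearest to Ndufaf6 (0.917, 0.937), Gatm (0.881, 0.741) and Nars2 (0.856, 0.825), and Ptger4 to Slc15a3 (0.859, 0.839), Prdm8 (0.852, 0.860) and Epb41l3 (0.850, 0.804).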

How the data were processed

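RNA of 12 sorted samples was amplified (NuGEN Ovation Pico WTA), labelled with biotin and measured on arrays, per the labels' protocols. The deposited table gives each probe set a log2 value on every array. How the authors corrected background and normalized is not given in the sources used here, and the values were used as they are. Of 35145 probe sets, 23521 had 1 symbol in the platform annotation, 1814 several and 9810 none; the latter kinds were left out. The probe set with the highest mean stood for each of 22180 genes.

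All 12 arrays entered 1 fit in limma 3.58.1 (R 4.3.3; residual degrees of freedom 7, prior 6.19), with a mean per population and 9 contrasts. Two-sided p-values were adjusted by Benjamini-Hochberg over 22180 genes per contrast; called means under 0.05. The fit was tested on simulated data. The members and lists were chosen with earlier results of these data known. Named were all measured members, of the wider list at most 4 called genes each way per comparison, and 3 genes nearest to each member that varied. Markers named were among the 3 most abundant of their lists or, chosen after their values were seen, moved with a member or stood apart in their list. Alternatives were other normalizations, filters, probe sets, fits and tests, and leaving out each array.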

Additional observations from a re-analysis of the deposited data

Results flagged for a closer look

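The difference between the lineages differed between spleen and marrow, by the interaction contrast of limma (CD24 DC minus CD172a DC, less pre-CD8 minus pre-CD4), for 3 of the 9 genes and for Ptgr1. It was -4.98 ± 0.36 for Ptgs2 (adjusted p = 2.1e-05), -1.80 ± 0.36 for Ptger3 (adjusted p = 0.033) and -1.76 ± 0.39 for Lta4h (adjusted p = 0.0491). In Ptgs2 and Ptger3 the difference arose with the high CD172a DC arrays and in Lta4h with the low CD24 DC arrays. The call of Ptgs2 held on leaving out any array (adjusted p up to 0.000456). That of Ptger3 was lost without 8 of the 12 arrays: CD172a DC 1 or 2, CD24 DC 2, CDP 2 or 3, pre-CD4 1 or 2, or pre-CD8 2 (adjusted p up to 0.181). That of Lta4h held only without CD24 DC 1 or 3 (adjusted p up to 0.178 without any other array). For Ptgr1 the contrast was 1.95 ± 0.33 (adjusted p = 0.0112), and it was not called without CD172a DC 1 (0.0545) or pre-CD4 1 (0.0732).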

How the results depend on the processing

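All 24 called differences of the 9 genes kept their sign under 8 other settings and on leaving out each of 12 arrays. The count of genes called moved by over 1.5 times as follows. For pre-CD8 against CDP it went from 0 to 1 with quantile normalization, the dim-gene filter (40th percentile), the mean of all probe sets, the fit of only the groups compared and the intensity trend (0 to 1 on leaving out an array). For pre-CD8 against pre-CD4 it went from 1 to 0 with quantile normalization, every probe set, the fit of only the groups compared and treat (0 to 1 on leaving out an array). For pre-CD4 against CDP it went from 3 to 0 with treat, which demands a difference above 0.5 (0 to 3 on leaving out an array), and for CD172a DC against CDP from 5 to 2 with treat (4 to 6). For the interaction it went from 3 to 1 with every probe set, the fit of only the groups compared and treat (1 to 3). On leaving out an array the other counts were 3 to 5 between the spleen populations and from pre-CD4 to CD172a DC, and 2 to 3 from pre-CD8 or CDP to CD24 DC. Replicate numbers of the labels were read as a number only: deviations of same-number arrays correlated at r = 0.10 to 0.42 in 13 pairs outside CD172a DC and at -0.16 to 0.02 in 8 pairs with it. With the replicate number as a block, Ptger4 (pre-CD4 against CDP, adjusted p = 0.0628) and Lta4h (interaction, 0.0622) lost their calls, Ptger2 gained one between CD24 DC and CD172a DC (1.08, adjusted p = 0.0463), and it changed no other call of the 9 genes. In the wider list Cysltr1 (pre-CD4 against CDP, 0.0555, and CD24 DC against pre-CD8, 0.0756), Ptgr1 (pre-CD4 against CDP, 0.0802) and Mgst2 (pre-CD8 against CDP, 0.0506) lost calls with the block. Counts of the wider list moved by over 1.5 times in each comparison with treat and in several on leaving out an array. The cause of these changes was not tested.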
